A study of Rattus norvegicus with 6 samples.

Results

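The genes described here are 10 markers of macrophages and other leukocytes, *Itgam*, *Tyrobp*, *Laptm5*, *C1qa*, *C1qb*, *C1qc*, *Aif1*, *Cd68*, *Ptprc* and *Csf1r*, measured in replicating and quiescent rat β-cells. They were chosen as known markers, with earlier results of these data known, and matched by the gene name that the array gives each probe. All 10 were on the array, among 36174 names, through 14 probes of 45598. *Aif1*, *Csf1r*, *Itgam* and *Tyrobp* had 2 probes each and the other 6 genes had 1. A gene with 2 probes is represented by the brighter one over all 6 arrays, and the other is given beside it.

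Islets came from young adult male Wistar rats, with 4 rats pooled in each of 3 preparations. They were cultured with EdU, a thymidine analogue that enters newly made DNA. Islet cells were then dispersed, labelled with Newport Green, a zinc-binding dye, fixed, and gated as β-cells by large size, high granularity and high Newport Green signal. From each preparation the EdU-positive cells gave the replicating sample and the EdU-negative cells the quiescent one, so each group holds 3 samples and both groups share the rats, the culture, the EdU exposure, the fixation and the gate. The paper reports far fewer cells and far less RNA for the replicating fraction than for the quiescent one. The gate used no leukocyte surface marker. EdU marks DNA synthesis in any cell type. By staining, the paper found nearly all cells of both fractions positive for insulin and C-peptide. Its qPCR did not detect amylase, *Krt20* or *Pecam1*, and detected *Gcg*, *Sst* and *Ppy* in part of the samples. Vimentin was detected in both fractions, with more in the replicating one. The qPCR assays that the paper lists include no leukocyte marker.

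As background, islets hold resident macrophages, which depend on signalling through the receptor encoded by *Csf1r*, take up material released by β-cells and present antigen. Their characteristic genes include the 3 chains of C1q, the part of complement that binds immune complexes and dying cells, the adaptor Tyrobp (DAP12), which carries signals of receptors that have no signalling tail of their own, and the lysosomal glycoprotein Cd68. *Ptprc* (CD45) and *Laptm5* are shared by most blood-derived leukocytes, *Itgam* (CD11b) by myeloid cells, and *Aif1* (Iba1) by macrophages and microglia. In bulk samples such as these, fewer cells of a type and less RNA per cell cannot be told apart.

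The 3 C1q genes lie side by side on chromosome 5, and only *C1qc* met the call described below, so their probes are shown first, 5′ to 3′. On rn4 the *C1qb* probe lies at chr5:155647530-155647589, that of *C1qc* at chr5:155656638-155656697 and that of *C1qa* at chr5:155662578-155662637. Capitals in *C1qa* and *C1qc* mark a run of 5 bases that both probes hold. They share other runs of that length and none longer. The longest run shared by the *C1qa* and *C1qb* probes is 6 bases and that of *C1qb* and *C1qc* is 5, out of 60 in each probe. For *C1qb* bases 31 to 60 are shown, with capitals on AATAAA, the polyadenylation signal.
C1qa: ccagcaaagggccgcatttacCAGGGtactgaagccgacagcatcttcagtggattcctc
C1qc: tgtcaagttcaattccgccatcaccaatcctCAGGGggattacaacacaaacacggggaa
C1qb, bases 31 to 60: tgttacagaatgggtaAATAAActcttcaa

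AATAAA is present in 3 of the 14 marker probes, those of *C1qb*, *Aif1* (the brighter) and *Tyrobp* (the dimmer), and in 9.04% of all probes. The 2 *Itgam* probes are shown because they differ most in kind. The dimmer one spans 534 bases of rn4, chr1:187385032-187385565, although it is 60 bases long, so it crosses at least 1 splice junction. The brighter one, of which bases 1 to 30 are shown, lies in 1 piece at chr1:187385777-187385836 and opens with 5 CA repeats, marked in capitals. A run of 5 or more is found in 0.366% of all probes.
Itgam, dimmer probe: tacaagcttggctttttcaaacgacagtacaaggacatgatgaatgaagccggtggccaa
Itgam, brighter probe, bases 1 to 30: CACACACACAcggttttaaacaagtggtag
Tyrobp, dimmer probe, bases 31 to 60: gctggAATAAAtatccacagagtgccctct

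The 2 *Tyrobp* probes lie close together on chromosome 1 of rn4, the dimmer at chr1:85369110-85369169 and the brighter at chr1:85369042-85369101, but the array lists the brighter one in the opposite orientation. The labelled cDNA was made from double-stranded cDNA, so transcripts of both strands can be read by either probe. The brighter *Tyrobp* probe was designed on an expressed sequence tag and is the less certain of the pair.

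A promoter table from RefSeq (GRCr8) held 7 of the 10 genes (*C1qa*, *C1qb*, *Cd68*, *Csf1r*, *Itgam*, *Laptm5* and *Ptprc*). The 250 bases before the start were searched on both strands for GAGGAA, the core bound by the myeloid factor PU.1. They were searched likewise for TGAGTCA, which AP-1 binds, for TTGCNNAA, a site of the C/EBP factors, and for TATAAA, the TATA box. GAGGAA or its reverse complement was present in 6 of the 7, *C1qa* being the exception, against 23.2% of 27457 promoters. TGAGTCA was present in *Cd68* alone (3.98% of all promoters), TTGCNNAA in *Itgam* alone (9.2%) and TATAAA in *Laptm5* alone (13.1%). The 250 bases before the *Cd68* start, chr10:54882442-54882691 on the minus strand of GRCr8, are shown because *Cd68* was 1 of the 2 genes that met the call below. Capitals mark, counted from the start site, TGAGTCA at -205 to -199 and at -80 to -74, and TTCCTC, the reverse complement of GAGGAA, at -27 to -22. A match of letters is a description and not a bound site.
Cd68 promoter: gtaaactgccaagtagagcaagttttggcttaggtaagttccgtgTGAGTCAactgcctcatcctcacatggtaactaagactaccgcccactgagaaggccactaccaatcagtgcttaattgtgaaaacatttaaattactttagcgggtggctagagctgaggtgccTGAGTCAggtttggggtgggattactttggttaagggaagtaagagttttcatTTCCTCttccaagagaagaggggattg

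Expression is given as the deposited log2 value, after background correction and quantile normalization, with spots of a probe averaged. Since probes differ in brightness, values are compared between arrays for 1 probe and not between genes. Quiescent array 2 stood apart: its Pearson's r across probes with the other 5 arrays was 0.654 to 0.830, while the 3 replicating arrays had an r of 0.967 to 0.986 with each other. Quiescent arrays 1 and 3 had an r of 0.867, so the quiescent arrays were less alike than the replicating ones also without array 2. With the replicating arrays, quiescent array 1 had an r of 0.869 to 0.887 and quiescent array 3 of 0.943 to 0.969. Quiescent array 2 also had 1583 spots marked as outliers, against 252 to 299 on the others. Ratios of named genes are therefore also given without preparation 2 where this changed a call or moved the ratio of the brightest probe by over 1.5 times. The insulin genes read 15.51 to 17.20 on all 6 arrays, and *Top2a*, a gene of dividing cells, was 3.75, 3.77 and 3.76 log2 units higher in the replicating cells of preparations 1, 2 and 3. P-values rest on the spread between the preparations, with the variance of each probe drawn by limma toward that of all probes.

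Each marker was compared between replicating and quiescent β-cells with limma, within islet preparations (a block in the fit), and with Benjamini-Hochberg adjustment over all 45598 probes. A gene was called when the unadjusted p was at most 0.05 and the log2 ratio at least 1 in size, which is 2-fold. Over all probes, 4.44% were called higher and 4.18% lower in replicating β-cells. No probe had an adjusted p under 0.05, and 4379 (9.6%) had an unadjusted p under 0.05 (limma). The least adjusted p over all probes was 0.0977.

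Of the 10 markers, 2 were called higher in replicating β-cells, *C1qc* and *Cd68*, and 0 lower. Neither passed after adjustment (adjusted p = 0.475 for both, limma), and 0 of the other 8 had an unadjusted p under 0.05. The log2 ratio was above 0 for 7 markers and below 0 for *Tyrobp*, *Laptm5* and *C1qa*. Its median was 0.25, beside -0.07 for all probes.

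**Figure D1:**
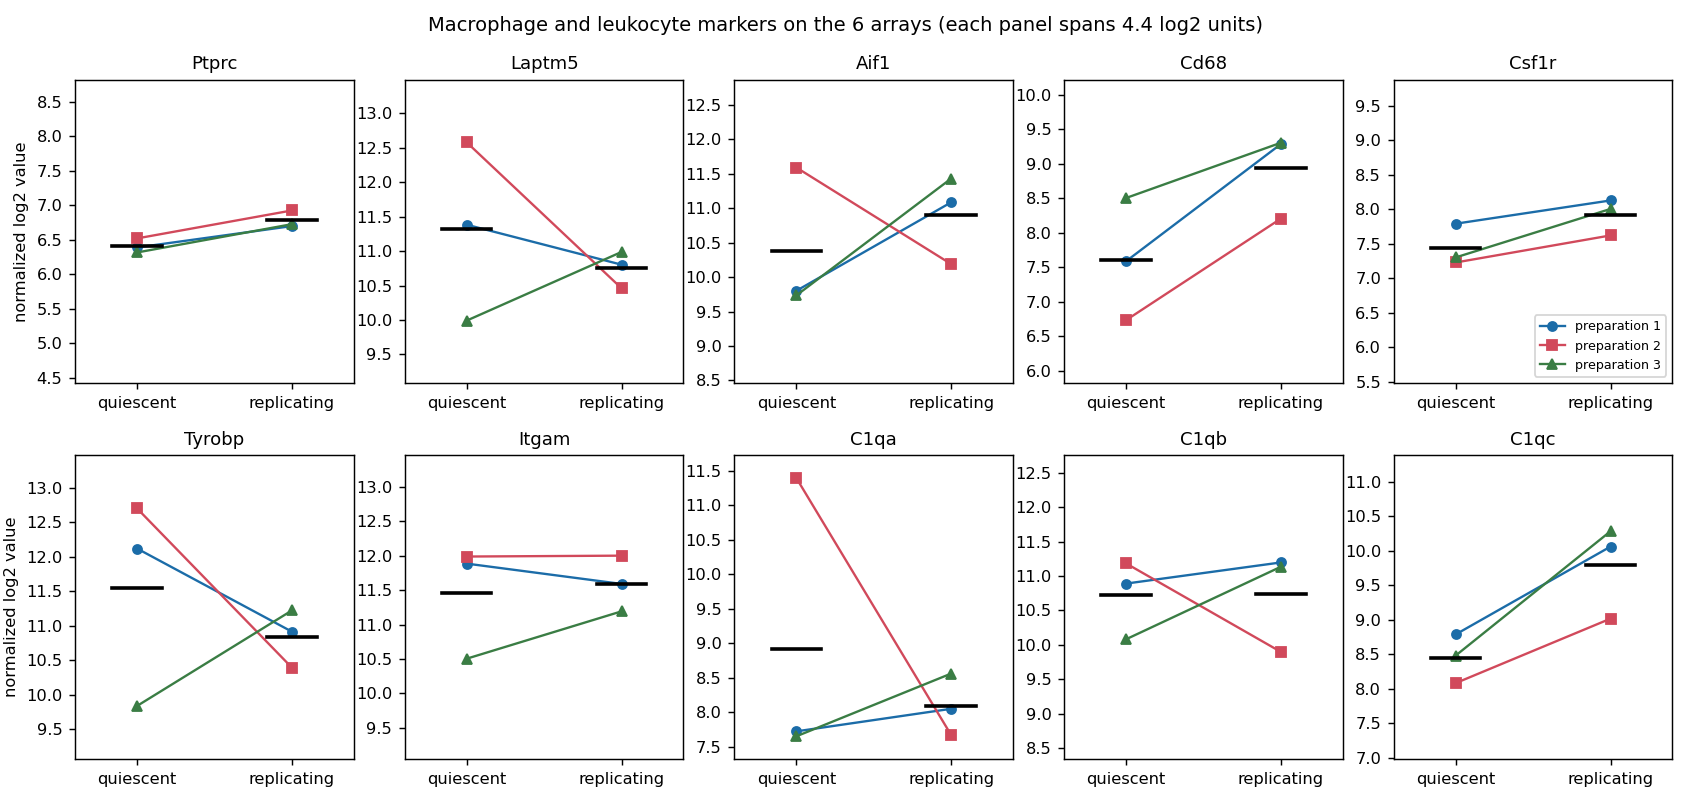
Normalized log2 value (vertical axis) of the 10 markers in quiescent and replicating β-cells, 1 panel per gene, each panel covering the same number of log2 units. Lines join the 2 samples of a preparation and black bars are the group means (n = 3). The lines of *C1qc* and *Cd68* rise in all 3 preparations, while those of *C1qa*, *Laptm5*, *Tyrobp*, *Aif1* and *C1qb* run down in preparation 2 and up in preparation 3.

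Among the C1q chains, *C1qc* read 10.06, 9.02 and 10.28 in replicating β-cells of preparations 1, 2 and 3, and 8.79, 8.08 and 8.48 in quiescent β-cells. All 3 replicating samples were above all 3 quiescent ones. The means were 9.79 ± 0.68 and 8.45 ± 0.35 (SD, n = 3), a log2 ratio of 1.34 (SE 0.34, 2.53-fold, unadjusted p = 0.0104 and adjusted p = 0.475, limma). The probe has 1 spot per array, so its spread on an array is not known. Under scaling of each array to its 75th percentile, 0 of the 10 markers were called, against 3.5% of all probes called higher and 12.9% lower with the same background correction, and 1.45% and 7% with the scanner's processed signal. *C1qc* lost its call there, with ratios of 1.09 (unadjusted p = 0.0548, limma) and 1.21 (unadjusted p = 0.164, limma). Under these scalings the ratio of preparation 2 was -0.08 and -0.11, beside medians of -0.62 and -1.34 for all probes in that preparation. Without preparation 1 the ratio was 1.37 and the unadjusted p 0.0745 (limma).

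*C1qb*, the chain encoded next to *C1qc*, read 11.20, 9.90 and 11.13 in replicating and 10.89, 11.18 and 10.08 in quiescent β-cells. The groups overlapped, since the lowest value was a replicating sample and the highest too. The ratio of replicating over quiescent was 0.02 on the log2 scale (SE 0.52, unadjusted p = 0.964, limma), with a 95% interval of -1.31 to 1.36. Within the preparations it was 0.31, -1.28 and 1.05, and without preparation 2 the ratio came to 0.68 (unadjusted p = 0.149, limma). The SD over its 10 spots on an array was 0.107 to 0.200, smaller than each of these differences.

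*C1qa* read 8.05, 7.67 and 8.56 in replicating and 7.72, 11.39 and 7.65 in quiescent β-cells. Quiescent sample 2 was thus the highest, 3.67 log2 units above the next quiescent sample, and the other 5 samples lay within 1 unit of each other. All 10 of its spots on that array read high, from 10.62 to 11.77, with an SD over spots of 0.383 against 0.0465 to 0.0825 on the other arrays. Over all preparations this gave -0.83 (SE 0.96, unadjusted p = 0.424, limma), from 0.33, -3.73 and 0.91 within them. Without preparation 2 it was 0.62 (unadjusted p = 0.176, limma). *C1qc*, the gene next to it, was lowest of all samples on that same quiescent array.

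Of the phagocyte and lysosome genes, *Cd68* read 9.29, 8.21 and 9.31 in replicating and 7.59, 6.74 and 8.51 in quiescent β-cells. Replicating sample 2 was below quiescent sample 3, so the groups overlapped, but the replicating sample was the higher in every preparation, by 1.70, 1.47 and 0.80. The log2 ratio was 1.32 (SE 0.35, 2.50-fold, unadjusted p = 0.0115 and adjusted p = 0.475, limma), from means of 8.93 ± 0.63 and 7.61 ± 0.89 (SD, n = 3). Scaling to the 75th percentile gave ratios of 0.89 (unadjusted p = 0.0971, limma) and, with the processed signal, 0.99 (unadjusted p = 0.172, limma), which were not called. Without preparation 1 the ratio was 1.14 and the unadjusted p 0.111 (limma).

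*Laptm5*, a lysosomal membrane protein of blood-derived cells, read 10.80, 10.46 and 10.99 in replicating and 11.38, 12.58 and 9.99 in quiescent β-cells. The replicating samples lay close together, and the quiescent ones held both the highest and the lowest value. The ratio came to -0.57 log2 units (SE 0.64, unadjusted p = 0.412, limma), and 0.21 without preparation 2 (unadjusted p = 0.685, limma). The SD over its 10 spots was 0.0326 to 0.129 on an array.

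*Tyrobp*, the adaptor that carries signals of Trem2 and other receptors, read 10.92, 10.39 and 11.22 in replicating and 12.12, 12.70 and 9.84 in quiescent β-cells with its brighter probe. The replicating samples again lay between the lowest and highest quiescent ones. The ratio was -1.21, -2.31 and 1.38 in preparations 1, 2 and 3, and -0.71 over all of them (SE 0.75, unadjusted p = 0.384, limma). Without preparation 3 it was -1.76 and met the call as lower (unadjusted p = 0.0176, adjusted p = 0.171, limma), and without preparation 2 it was 0.09 (unadjusted p = 0.889, limma). The dimmer *Tyrobp* probe, with 10 spots, gave ratios of 0.19, -1.70 and 1.29, and -0.07 over all (unadjusted p = 0.911, limma). The probes differed most in preparation 1, where their ratios had opposite signs.

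*Itgam*, the α chain of a complement receptor, read 11.59, 11.998 and 11.19 in replicating and 11.88, 11.99 and 10.50 in quiescent β-cells with its brighter probe. The samples of preparation 2 were almost equal and those of preparation 3 the lowest of their groups. Its log2 ratio came to 0.13 (SE 0.35, unadjusted p = 0.716, limma), with a 95% interval of -0.76 to 1.03, and to 0.20 without preparation 2. The dimmer *Itgam* probe, the one that crosses a junction, was well above background on 1 replicating and 2 quiescent arrays, and its ratio was -0.02 (unadjusted p = 0.963, limma). Over all probes this mark was more frequent on quiescent arrays 1 and 2 (96.4% and 98.4%) than on the others (80.8% to 87.3%).

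*Aif1*, an actin-binding protein of macrophages, read 11.08, 10.19 and 11.43 in replicating and 9.80, 11.59 and 9.73 in quiescent β-cells. Quiescent sample 2 was the highest of all 6, and the other 2 quiescent samples were below every replicating one. The log2 ratio was 0.53 (SE 0.68, unadjusted p = 0.471, limma) over all preparations and 1.49 without preparation 2 (unadjusted p = 0.00716, adjusted p = 0.555, limma), where it met the call. The dimmer *Aif1* probe, which crosses a junction, read 7.51, 7.23 and 8.01 in replicating and 7.24, 6.57 and 6.88 in quiescent β-cells. On it quiescent sample 2 was the lowest of all samples, the opposite of the brighter probe, and its ratio of 0.69 (unadjusted p = 0.0967, limma) was above 0 in all 3 preparations.

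**Figure D2:**
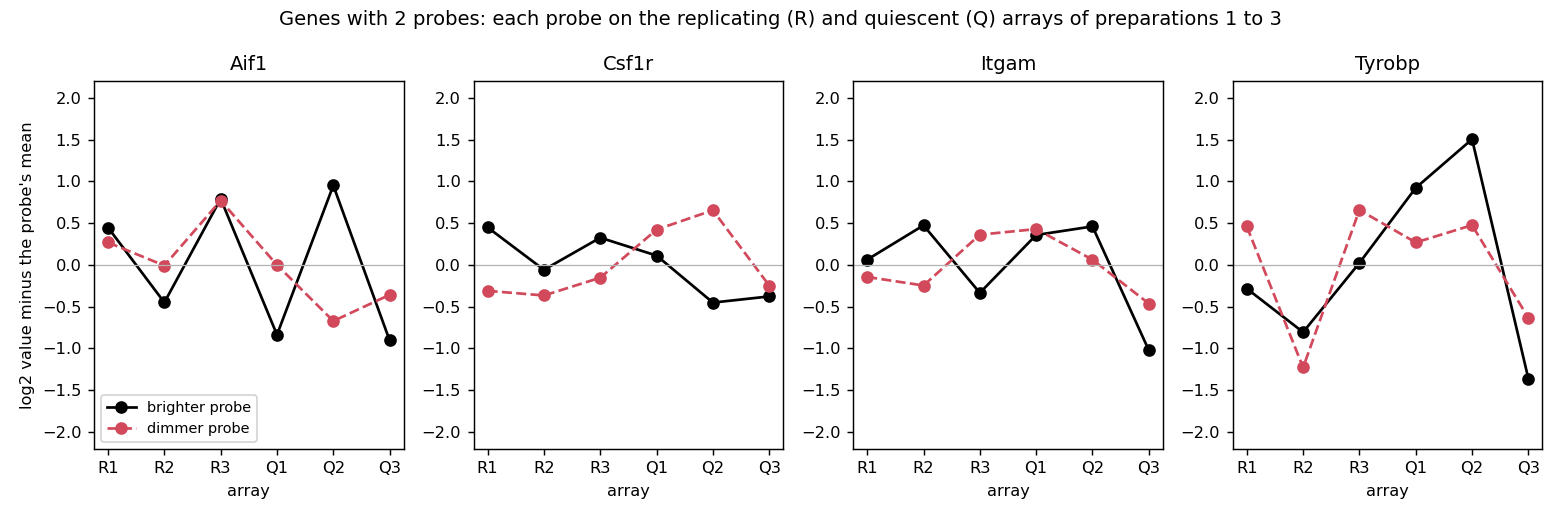
Log2 value minus the mean of the probe over the 6 arrays (vertical axis) for the 4 genes with 2 probes, on replicating arrays R1 to R3 and quiescent arrays Q1 to Q3; black lines are the brighter and dashed lines the dimmer probe. For *Aif1* and *Csf1r* the probes part on Q2, where the brighter *Aif1* probe read 11.59 as its highest value and the dimmer 6.57 as its lowest.

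Of the surface receptors, *Csf1r*, the receptor that macrophages need for survival, read 8.13, 7.62 and 8.01 in replicating and 7.79, 7.23 and 7.30 in quiescent β-cells. The replicating sample was the higher in each preparation, while the groups overlapped. The log2 ratio was 0.48 (SE 0.31, unadjusted p = 0.182, limma), and -0.01 with the processed signal scaled to the 75th percentile. The dimmer *Csf1r* probe gave -0.55 (unadjusted p = 0.190, limma), so the direction for this gene depends on the probe. That probe lies at chr18:57061458-57061517 on rn4, away from the brighter one at chr18:57105231-57105932. Its accession had no match in a RefSeq table, so it is the less certain of the pair.

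*Ptprc*, the tyrosine phosphatase on all nucleated blood cells, read 6.70, 6.92 and 6.72 in replicating and 6.39, 6.52 and 6.31 in quiescent β-cells. The groups did not overlap, although the probe was dim and not well above background in quiescent sample 3. The log2 ratio was 0.38 (SE 0.30, unadjusted p = 0.268, limma), with preparations at 0.31, 0.41 and 0.41. It turned to -0.11 and -0.18 under the scalings to the 75th percentile, where the median of all probes was -0.39 and -0.71, so that relative to this shift it stayed above it.

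**Figure D3:**
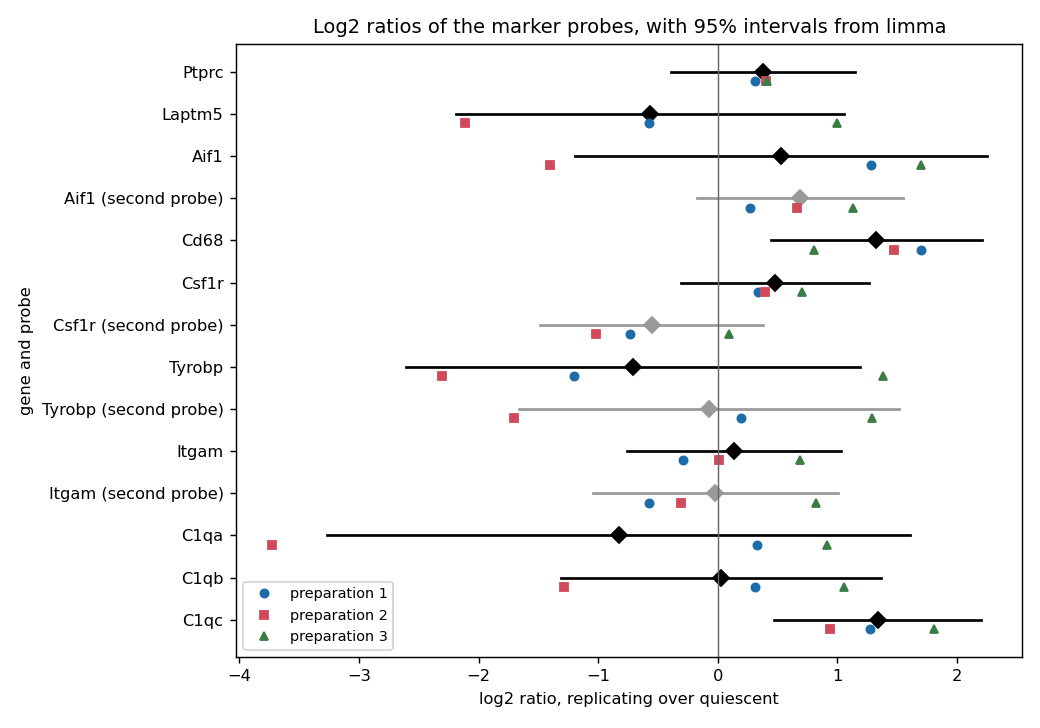
Log2 ratio of replicating over quiescent β-cells (horizontal axis) for the 14 marker probes; diamonds with lines are the ratio and its 95% interval from limma, grey for the dimmer probe of a gene, and coloured points are the 3 preparations. Intervals of *C1qc* and *Cd68* lie above 0, and the points of preparation 3 lie above 0 for all 14 probes while those of preparation 2 reach -3.73 for *C1qa*.

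The preparations differed in direction for these genes. In preparation 3 all 10 markers were higher in the replicating sample, against 44.3% of all probes there. Such shares of direction and rank are over the 44652 probes with a value on all 6 arrays. In preparation 1 it was 7 of 10 (49% of all probes) and in preparation 2 it was 5 of 10 (48.3%). The median log2 ratio of the markers was 0.32, -0.64 and 0.95 in preparations 1, 2 and 3. *C1qc*, *Cd68*, *Csf1r* and *Ptprc* were higher in the replicating sample of all 3 preparations, 4 of 10 against 15.7% of all probes. *C1qc* and *Ptprc* did not overlap between groups, 2 of 10 against 9.01% of all probes with replicating samples higher.

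The rank of individual samples was counted too. Replicating sample 2 was the lowest of the replicating samples for 8 of 10 markers (33% of all probes), with *Itgam* and *Ptprc* as the exceptions. Quiescent sample 3 was the lowest of the quiescent samples for 7 of 10 (39.9% of all probes). Quiescent sample 2 was the highest of all 6 samples for 4 markers, *Aif1*, *C1qa*, *Laptm5* and *Tyrobp* (33.3% of all probes), and it was at least 1 log2 unit above every other sample for *C1qa* and *Laptm5* (12.3% of all probes). The same sample was the lowest of all 6 for *C1qc*, *Cd68* and *Csf1r* (35.2% of all probes). Its counts of highest and lowest are near the shares over all probes, so they are not particular to these markers.

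Leaving out preparation 2, the log2 ratio was above 0 for all 10 markers, from 0.09 for *Tyrobp* to 1.54 for *C1qc*, with a median of 0.57. Then 3 markers met the call as higher, *C1qc*, *Cd68* and *Aif1*, against 3.17% of all probes. Leaving out preparation 3 turned the median to -0.10, with 4 of 10 markers above 0, and leaving out preparation 1 gave 0.25 and 6 of 10. Without preparation 1, 0 markers met the call (1.14% of all probes called higher), and without preparation 3, *C1qc* and *Cd68* were called higher (11.2% of all probes) and *Tyrobp* lower (12.4%). None of the markers had an adjusted p under 0.05 in any of these fits (limma, Benjamini-Hochberg).

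The genes whose pattern over the 6 arrays was most like the mean pattern of the 10 markers, among 19757 probes with a name that were well above background on all arrays, were *Trib2*, *Crip1*, *Slc39a11*, *Slc25a39* and *Hsd17b11*. Their root mean square difference from it was 0.08, 0.10, 0.13, 0.14 and 0.15 log2 units. The distance of the markers from their own mean ran from 0.26 for *C1qb* to 1.03 for *Cd68* and 1.10 for *C1qa*. The genes above were picked as the nearest of all these probes, so their smaller distances follow from the choice.

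Further genes of the same pathways were taken from 7 lists with 102 genes on the array. Of these, 15 were called higher in replicating β-cells, 1 lower and 86 were not called (4.44% and 4.18% of all probes were called higher and lower), with a median log2 ratio of 0.00 and 51 of 102 above 0. None had an adjusted p under 0.05 (limma). The lists were chosen with earlier results of these data known, so these counts beside all probes are a description and not a test.

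**Figure D4:**
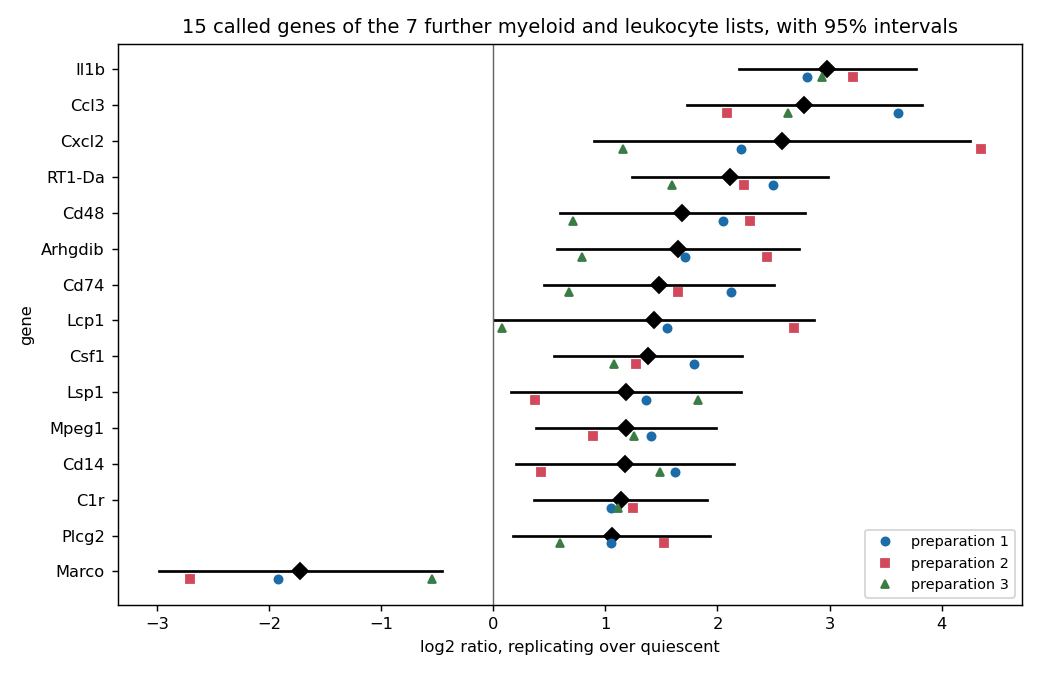
Log2 ratio of replicating over quiescent β-cells (horizontal axis) for 15 of the 16 called genes of the 7 further myeloid and leukocyte lists, with 95% intervals from limma (lines) and the 3 preparations (coloured points). *Il1b*, *Ccl3* and *Cxcl2* are the highest, at 2.98, 2.78 and 2.57, and *Marco* is the one gene below 0, at -1.72.

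In the list of the CSF1 receptor axis and myeloid transcription factors, 1 of 11 genes was called, and the median log2 ratio was 0.34. The gene was *Csf1*, the growth factor that Csf1r binds, which read 9.28, 8.85 and 9.08 in replicating and 7.48, 7.57 and 8.003 in quiescent β-cells. The groups did not overlap, and the ratio was 1.38 (SE 0.33, unadjusted p = 0.00804 and adjusted p = 0.475, limma). Its dimmer probe gave 0.80 (unadjusted p = 0.0967, limma). The brightest genes of the list, *Cebpb* and *Ikzf1*, had ratios of 0.42 and -0.48, and of 0.0049 and -0.26 without preparation 2.

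Of the 18 genes around the ITAM adaptor, 2 were called higher, *Plcg2* among them, and the median was -0.05. *Plcg2*, a phospholipase of this signalling route, had a ratio of 1.06 (SE 0.34, unadjusted p = 0.0269, limma), from 1.05, 1.52 and 0.59 within the preparations. Its call was lost without preparation 2 (0.82, unadjusted p = 0.0812, limma) and without preparation 1 (1.06, unadjusted p = 0.141, limma). Of 8 leukocyte integrins and partners 0 were called, and their median was -0.42. The adhesion ligand *Icam1*, one of the brightest of that list, had a ratio of 1.18 and an unadjusted p of 0.0828 (limma), with preparation 2 at 2.63 and the others at 0.64 and 0.26, and a ratio of 0.45 without preparation 2.

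Among 12 genes of classical complement and its receptors, 1 was called higher, *C1r*, the protease that C1q activates, at 1.05, 1.25 and 1.11 in the 3 preparations and 1.14 over all (SE 0.30, unadjusted p = 0.0127, limma). It read 8.16, 7.63 and 8.69 in replicating and 7.12, 6.38 and 7.58 in quiescent β-cells, and the groups did not overlap. *C3*, the central component, had a ratio of 0.56 and *Serping1*, the inhibitor of C1r, -0.13, and without preparation 2 these were 0.06 and -0.32.

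Of 27 further macrophage markers, 5 were called higher and 1 lower, and 1 of the 5 was *Il1b*, a cytokine of activated myeloid cells. It read 12.57, 11.24 and 12.31 in replicating and 9.77, 8.03 and 9.37 in quiescent β-cells. Every replicating sample was above every quiescent one. The ratio was 2.80, 3.21 and 2.94 within the preparations and 2.98 over all (SE 0.31, 7.90-fold, adjusted p = 0.143, limma). The chemokines *Ccl3* and *Cxcl2* followed, with ratios of 2.78 (SE 0.41, adjusted p = 0.261, limma) and 2.57 (SE 0.66, adjusted p = 0.475, limma). *Cxcl2* was 1.68 without preparation 2, where it was still called (unadjusted p = 0.00590, limma). As background, *Il1b*, *Cxcl2* and *Csf1* are inducible genes that cells other than leukocytes can also express.

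*Cd14*, a receptor for bacterial lipopolysaccharide, and *Mpeg1*, a pore-forming protein of phagocytes, both had a ratio of 1.18 (unadjusted p = 0.0263 and 0.0127, limma). *Mpeg1* has 2 further probes, with ratios of 0.45 and 0.35, neither called. The scavenger receptor *Marco* was the gene called lower, at 6.96, 8.20 and 7.16 in replicating and 8.88, 10.91 and 7.70 in quiescent β-cells. The replicating sample was the lower in each preparation while the groups overlapped, and the ratio was -1.72 (SE 0.50, unadjusted p = 0.0169, limma). *Cx3cr1*, a chemokine receptor and one of the brightest of this list, had a ratio of 0.30. Its brighter probe read 15.45 to 16.13 over the arrays and its dimmer probe 7.40 to 8.73, with a ratio of 0.40. The level of this gene thus depends on the probe.

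Of 10 antigen presentation genes, 2 were called higher, *RT1-Da* and *Cd74*, while the median of the list was -0.02. *RT1-Da*, the α chain of an MHC class II molecule, read 9.72, 8.41 and 9.49 in replicating and 7.22, 6.17 and 7.90 in quiescent β-cells. The groups did not overlap, and the ratio was 2.11 (SE 0.34, 4.32-fold, adjusted p = 0.312, limma). *Cd74*, the invariant chain that travels with class II, had a ratio of 1.48 (SE 0.40, adjusted p = 0.475, limma). *RT1-Db1*, the β chain that pairs with RT1-Da, went the other way in preparations 1 and 2, with -1.15, -1.70 and 0.30, and was not called (ratio -0.85, unadjusted p = 0.134, limma, and -0.42 without preparation 2). Class II and the invariant chain mark antigen-presenting cells, which include macrophages, dendritic cells and B cells.

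Of 16 pan-leukocyte genes, 4 were called higher, and the median was -0.14. *Cd48*, an adhesion protein of leukocytes, had a ratio of 1.68, *Arhgdib*, a GTPase inhibitor of blood cells, 1.65, the actin bundler *Lcp1* 1.44 and *Lsp1*, another actin-binding protein, 1.19, with unadjusted p from 0.0105 to 0.0489 (limma). *Lcp1* was the least even, with 1.55, 2.69 and 0.07 in the preparations, and its call was lost without preparation 2 (0.81, unadjusted p = 0.134, limma) and without preparation 1 (1.38, unadjusted p = 0.171, limma). *Dock2* and *Cd4*, the brightest of the list, had ratios of -1.10 and -0.69 and were not called, and *Dock2* was highest, at 12.93, in quiescent sample 2. Without preparation 2 their ratios were -0.30 and -0.27. The 3 dimmer *Dock2* probes gave -0.99, 0.34 and -0.16 and the dimmer *Cd4* probe 0.35, so the direction of both genes depends on the probe.

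Without preparation 1 the calls in the 7 lists fell to 5 of 102, all higher, among them *Il1b*, *Ccl3*, *Cxcl2* and *RT1-Da* (1.14% of all probes called higher). Without preparation 2 it was 23 higher and 1 lower, beside 3.17% of all probes higher and 813 of 45598 lower. Without preparation 3 it was 14 higher and 9 lower, beside 11.2% and 12.4% of all probes. In the latter fit *Dock2*, *Cd4* and *RT1-Db1* were among those called lower, at -1.88, -1.24 and -1.42, while *Cd14* and *Lsp1* lost their calls, at 1.02 and 0.86 (unadjusted p = 0.0956 and 0.125, limma). Under the processed signal scaled to the 75th percentile 5 genes were called higher and 3 lower (1.45% and 7% of all probes). With the normexp values so scaled it was 7 higher and 8 lower (3.5% and 12.9% of all probes). These counts stand beside the shift of all probes to -0.71 and -0.39.

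Among the lists of other cell types, those of fibroblast and stellate cells and of other islet hormones had the highest median ratios. All 10 fibroblast and stellate cell genes had a ratio above 0, with a median of 1.21, and 4 were called higher, among them *Col3a1* at 3.04 (SE 0.44, adjusted p = 0.240, limma). Their mean log2 value was 9.03 to 10.19 in the replicating and 8.30 to 8.35 in the quiescent samples. Of 4 other islet hormone genes 3 were called higher, *Gcg* at 2.39, *Sst* at 1.74 and *Ppy* at 1.21, and the mean value of the list was 10.68 to 11.50 in the replicating and 9.41 to 10.61 in the quiescent samples. Their part in the ratios of the macrophage markers was not tested.

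The 10 macrophage and leukocyte markers had mean log2 values of 9.78, 9.24 and 9.88 in the replicating and 9.44, 9.999 and 8.84 in the quiescent samples of preparations 1, 2 and 3. The groups overlapped in this mean. Replicating sample 2 was also the lowest replicating sample for the fibroblast list, and quiescent sample 2 had the highest mean of all samples for these markers and for 6 of the 7 further lists, the further macrophage markers being the exception. It was likewise the highest for the T, B and NK cell and the granulocyte lists, at 9.58, 9.81, 8.62 and 8.26. The array of this sample was the highest of all for 33.3% of all probes, and 98.4% of all probes were well above background on it. How often the mean of any other gene list is highest on that array was not tested.

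Of 13 T cell genes, 1 was called higher and 2 lower, of 7 B cell genes 1 lower, of 7 NK cell genes 1 lower and of 8 granulocyte and mast cell genes 0. Their medians were -0.71, -0.72, -0.77 and -0.26. *Cd3e*, a defining T cell gene, was well above background on 0 of 3 replicating and 2 of 3 quiescent arrays. That mark was set for 96.4% and 98.4% of all probes on quiescent arrays 1 and 2, and for 80.8% to 87.3% on the others. *Cd3e* read 7.93 in quiescent sample 2 and 6.32 to 6.66 in the others, with a ratio of -0.52, and -0.15 without preparation 2. Of 10 endothelial genes 0 were called, with a median of 0.21, and of 11 β-cell genes 0 were called higher and 1 lower, with a median of -0.56. *Pecam1* and *Cdh5*, both of endothelium, had ratios of 0.64 and -0.91, and *Ins1*, *Ins2* and *Iapp* of 0.25, 0.42 and 0.91, none of them called. Without preparation 2 the last 3 were -0.0055, 0.20 and 0.42, and the dimmer *Iapp* probe gave -0.14. Of the 10 macrophage and leukocyte markers, 9 were well above background on all 6 arrays, *Ptprc* being the exception.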

How the data were processed

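RNA of sorted, fixed cells was amplified by whole transcriptome amplification, labelled with Cy3 and hybridized to 6 one-colour Agilent rat arrays. The deposited scanner files hold an intensity per spot, read by the authors with Feature Extraction 10.7.3.1 and not normalized between arrays, with marks for outliers and for signal well above background, and probe positions on rn4. A table of log2 values was deposited too, which the authors made with normexp background correction and quantile normalization. These differed by at most 0.000245 from normexp (offset 50) and quantile normalization run here. Quantile normalization gives every array the same distribution, so a change shared by most probes is removed. Because RNA was amplified, input differences can widen the spread. Cell number and RNA yield differed between the groups, so an effect of input cannot be told apart from the group.

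The deposited log2 values were used for the main results. Control spots were dropped, spots marked as outliers set to missing, and spots of a probe averaged. A probe was well above background on an array where at least 50% of its spots were so marked. All 45598 probes were fitted in limma 3.58.1 (lmFit, eBayes) with R 4.3.3, with preparation as a block, and tested on simulated data first. The pairing comes from the labels: both samples of a preparation come from the same 4 rats. Across probes, the deviations of the 2 samples of preparations 1, 2 and 3 from their groups correlated with r = 0.0561, 0.242 and 0.258. Tables and plots were made with Python 3.11.15, pandas 2.3.3, numpy 2.4.6 and matplotlib 3.10.9. Arrays give no read depth, and 3 samples per group limit the precision.

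The markers and gene lists were chosen with earlier results of these data known. The text names every marker, the genes of 7 lists that were called or were the brightest 2 of their list, defining genes of other cell types, and the 5 genes nearest to the mean marker pattern; some genes that this rule takes are not reported here. Alternatives numbered 14: other background offsets, scalings, filters, outlier handling, the fit without block, a variance trend, the median over probes, and each preparation left out. Of 14 marker probes, 12 had an accession that a RefSeq table (GRCr8) gives the same symbol. The brighter *Tyrobp* and the dimmer *Csf1r* probe had no match.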

Additional observations from a re-analysis of the deposited data

How the results depend on the processing

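Across the 14 alternatives, 46 of 55 values for the counts and the marker median stayed within 1.5 times or within the spread of the preparations. For the marker median of 0.25 that spread was 0.80, so all its alternatives counted as unmoved, also -0.10 without preparation 3. Its part of this count therefore says little about stability. The same holds for the alternative that repeated the deposited normalization, since its values were bound to stay the same. The count of markers called, 2, was 0 with the processed signal and 0 with the normexp values when arrays were scaled to the 75th percentile, and 0 to 3 when a preparation was left out. The count in the 7 further lists, 16, was 8 with the processed signal so scaled and 5 to 24 with a preparation left out. The count over all probes, 3928, was 7458 with the normexp values so scaled (1596 higher and 5862 lower, against 2023 and 1905), 3855 with the processed signal (662 higher and 3193 lower) and 581 to 10745 with a preparation left out. The cause was not tested.

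The fit without the replicate block paid no regard to the pairing and called 2 markers (median 0.25), 14 genes of the lists and 2757 probes (1879 higher and 878 lower). Probes with an adjusted p under 0.05 (limma), 0 in the reported fit, numbered 99 without the block, 204 with cyclic loess, 719 with the normexp values scaled to the 75th percentile, 61 with a variance trend and 84 without preparation 2; no marker was among them.

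Single markers changed sign as follows. *Ptprc* was -0.18 and *Csf1r* -0.00867 with the processed signal scaled to the 75th percentile, *Ptprc* -0.11 with the normexp values so scaled, and *Csf1r* -0.0377 as the median of its probes. With a preparation left out, the ratio ran from -0.49 to 0.68 for *C1qb*, -1.76 to 0.0896 for *Tyrobp*, -1.35 to 0.21 for *Laptm5*, -1.70 to 0.62 for *C1qa*, -0.14 to 0.35 for *Itgam* and -0.0586 to 1.49 for *Aif1*. *C1qc* ran from 1.09 to 1.54 and *Cd68* from 0.89 to 1.73 over the 14 alternatives. Both stayed above 0 with other background offsets and scalings and with each preparation left out. The remaining alternatives could not test this. The normalization run here repeated the deposited one, and the block and the variance trend do not alter the ratio of complete pairs. The filter, the outlier handling and the median over probes leave a gene as it is when its 1 probe has 1 unmarked spot and passes the filter. Probes near background, such as that of *Ptprc* and the dimmer *Itgam* probe, limit what these arrays can show.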
